A study of Mus musculus with 2 samples.

Results

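Kinesins are the microtubule motors that build the mitotic spindle, finish cell division and carry cargo along cilia and cytoplasmic tracks. The 45 genes described here are every gene of the deposited table whose symbol begins with Kif or Kifc and a number, together with Kifap3, the accessory subunit of the ciliary transport motor, out of 32287 genes in all. The choice used the symbol alone, but it was made with earlier results of these data known. So were the lists of mitotic, ciliary and transport motors, and of their partners, over which genes are counted below. The symbol rule brings in 2 genes that are not motors, the kinesin-binding protein Kif1bp and the antisense RNA Kif16bos.

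The study profiled cultured brain ependymal progenitors by droplet single-cell RNA sequencing while they became multiciliated cells (MCCs), the cells whose beating cilia move cerebrospinal fluid. Newborn mice aged P0 to P2 gave the tissue, the wall of the lateral ventricle, whose cells were expanded in serum and were sampled 2 days after serum was withdrawn. There was 1 group of 2 cultures, replicate 1 from C57BL/6N mice (12028 cells, 173510950 unique molecular identifiers, UMIs) and replicate 2 from C57BL/6J mice (4373 cells, 70611931 UMIs), with no mutant or drug. The series' title names an endocycle variant in differentiating multiciliated cells as its subject, so the comparisons below set stages of the lineage against dividing and resting progenitors inside the same cultures.

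Such primary cultures are mixed. In the submitters' metadata each cell has a population name, 14 in all counting those left unannotated, and a cell cycle class out of 5: G0, G1, S, S/G2 and G2/M. No source used here states how either name was assigned, and both presumably rest on the same transcripts, so the tests below describe the named populations and are not independent of the naming. Defining markers were checked for each name: the proliferation markers Mki67 and Top2a summed to 1398 and 1839 CPM, the UMIs of a gene scaled to the summed UMIs of the population, in cycling progenitors of replicates 1 and 2, and the deuterosome genes Deup1, Ccno, Cdc20b and Mcidas summed to 1535 and 1666 CPM in mid deuterosomal cells. The multiciliated markers summed to 3341 and 3464 CPM in MCCs, below the 4026 and 3957 CPM of late deuterosomal cells, so their sum does not set MCCs apart. Within the list Rsph1 was lower in MCCs, at 1122 and 1347 CPM, against 2443 and 2302 CPM in late deuterosomal cells. The others, Tmem212, Dnah9, Foxj1 and Ccdc153, were higher in MCCs in both libraries. Tmem212 had 431 and 230 CPM, against 78.1 and 64.3 CPM. Other named cell types were a minority, each highest for its own marker list. The oligodendrocyte precursor list was shared, at 1777 and 2546 CPM in precursors and 1677 and 1629 CPM in oligodendrocytes. It also reached 698.5 CPM in neuroblasts of replicate 1. Unannotated cells (2163 and 565) had no list, and carried astroglial markers at 1890 and 2136 CPM and multiciliated markers at 1495 and 1452 CPM. The libraries share 13 cell barcodes, and the microglia of replicate 1 carried multiciliated markers at 663.8 CPM, against 115.5 CPM in replicate 2.

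As background, a dividing cell uses kinesins in sequence. Kif11 and Kif15 push spindle poles apart, Kif18a, Kif18b and Kif2c control the ends of spindle microtubules, Kif22 and Kif4 ride on chromosome arms, and Kif23, Kif20a, Kif20b and Kif14 build the central spindle and midbody at cytokinesis. A multiciliated cell does not divide again; it makes many centrioles on organelles called deuterosomes and then grows a cilium from each. Cilia are assembled by the kinesin-2 motor (Kif3a, Kif3b and Kifap3), while Kif9, Kif6, Kif27 and Kif19a belong to the axoneme or its tip and the depolymerising kinesins Kif24 and Kif2a restrain or dismantle cilia.

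Levels are CPM of UMIs summed over the cells of a population in 1 library, which makes each value a share of that population's RNA. Median UMIs per cell differed between stages, at 20650 and 22456 in late deuterosomal cells and 10490 and 13127 in progenitors I. A 3′ assay counts 1 end of each molecule, and levels are compared here within a gene, not between genes. Changes are log2 fold changes ± SE from edgeR's quasi-likelihood test on the same sums with the library as a block, adjusted over all genes tested by the Benjamini-Hochberg method and called at 0.05. The 2 cultures came from different substrains, so library and substrain cannot be told apart. Nothing in the labels says whether they also differed in day. With the library as a block, p-values measure how far differences between populations vary between the 2 cultures, pooled over the populations fitted.

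Of the 45 genes, 41 passed the low count filter and were tested. Kif2b, a spindle depolymeriser, had 0 UMIs in both libraries, which allows up to 3 counts in each. Kif12 had 9 and 0 UMIs, Kif16bos 8 and 2, and Kif28 7 and 5. Sorting the others by the stage of highest CPM placed 12 in cycling progenitors, 7 in a deuterosomal stage, 8 in an MCC stage and 4 in progenitors I or II in both libraries. Another 10 peaked in different groups of stages in the 2 libraries. This sorting was not run over all genes, so the counts have no background and say nothing particular to kinesins. It asked for no margin either: Kif5b, placed in cycling progenitors, had a highest stage only 1.91 and 1.76 times its lowest. Of the 14 genes listed as mitotic motors, 10 peaked in cycling progenitors, 2 (Kif2c and Kif22) in mid deuterosomal cells, and Kif18a in a different stage in each library. With levels scaled by edgeR's TMM factors, Kif18a peaked in a deuterosomal stage in both libraries. Kif4, among those placed in cycling progenitors, then peaked in different groups of stages in the 2 libraries. Of the 12 listed as ciliary, 6 peaked in an MCC stage and 4 (Kif3a, Kif3b, Kif24 and Kif2a) in a deuterosomal stage.

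Cycling progenitors held far more of every tested mitotic motor than the non-cycling progenitors I and II. In this comparison 17 of the 41 genes were higher and 11 lower, against 17.4% higher and 21.3% lower of the 15877 genes tested. The 13 tested mitotic motors were all higher, with a median log2 fold change of 5.63 and a range of 2.53 to 7.55, against a median of −0.10 over all genes. Kif20a, which moves the chromosomal passenger complex to the central spindle, had 65.2 and 95.7 CPM in cycling progenitors of replicates 1 and 2, against 0.25 and 0.56 CPM in progenitors I. Both libraries therefore separate the populations by far more than they differ from each other, and the change was 7.55 ± 0.20 (adjusted p = 4.88e-20). Kif11, the spindle motor that slides antiparallel microtubules, had 172 and 217 CPM, against 4.04 and 4.48 CPM in progenitors I and 11.2 and 10.4 CPM in progenitors II. Its change was 4.76 ± 0.19 (adjusted p = 2.05e-12). The smallest change of the group was that of the chromokinesin Kif22, with 88.2 and 94.2 CPM in cycling progenitors, against 13.4 and 9.12 CPM in progenitors I and 24.3 and 14.8 CPM in progenitors II (2.53 ± 0.15, adjusted p = 2.39e-11).

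Of the 12 ciliary motors, 6 were lower in cycling progenitors, 2 were higher and 4 did not pass. Of the 6 lower calls, those for Kif6 (DESeq2's Wald test, adjusted p = 0.104), Kif3c (thinned cells, 0.0694), Kif3a (without unannotated cells, 0.0553) and Kifap3 (no library term, 0.0861) were lost under the alternatives named. Kif9, a motor of the ciliary central apparatus, had 14.5 and 14.2 CPM in cycling progenitors, against 17.8 and 24.8 CPM in progenitors I and 39.9 and 52.2 CPM in progenitors II, a change of −1.13 ± 0.27 (adjusted p = 0.00435). The 2 that were higher both depolymerise microtubules: Kif24 by 2.11 ± 0.19 (adjusted p = 1.98e-09) and Kif2a by 0.58 ± 0.10 (adjusted p = 6.79e-05). Among the 10 listed partners of mitotic motors, such as the kinetochore motor Cenpe and the Kif11 regulator Tpx2, 9 were higher and Numa1 did not pass (−0.19 ± 0.10).

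The mitotic motors returned in deuterosomal cells, although to very different heights. Against progenitors I and II, the deuterosomal stages had 22 of 41 genes higher and 13 lower, where 36.2% of all genes were higher and 34.3% lower. All 13 mitotic motors were higher, by 2.42 to 6.22 with a median of 3.29, beside a median of 0.01 over all genes. The proliferation markers Mki67 and Top2a summed to 639.7 and 820.5 CPM in mid deuterosomal cells and 507.9 and 624.3 CPM in late ones. Most of this was Top2a, at 616 and 779 CPM in mid cells. Mki67 had only 23.3 and 41.5 CPM in mid cells and 38.1 and 34.1 CPM in late ones, against 536 and 730 CPM in cycling progenitors. Their part in the result was not tested. The call for Kif14 (2.84 ± 0.87) was lost when cells were thinned to 5000 UMIs (adjusted p = 1.00).

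**Figure D1:**
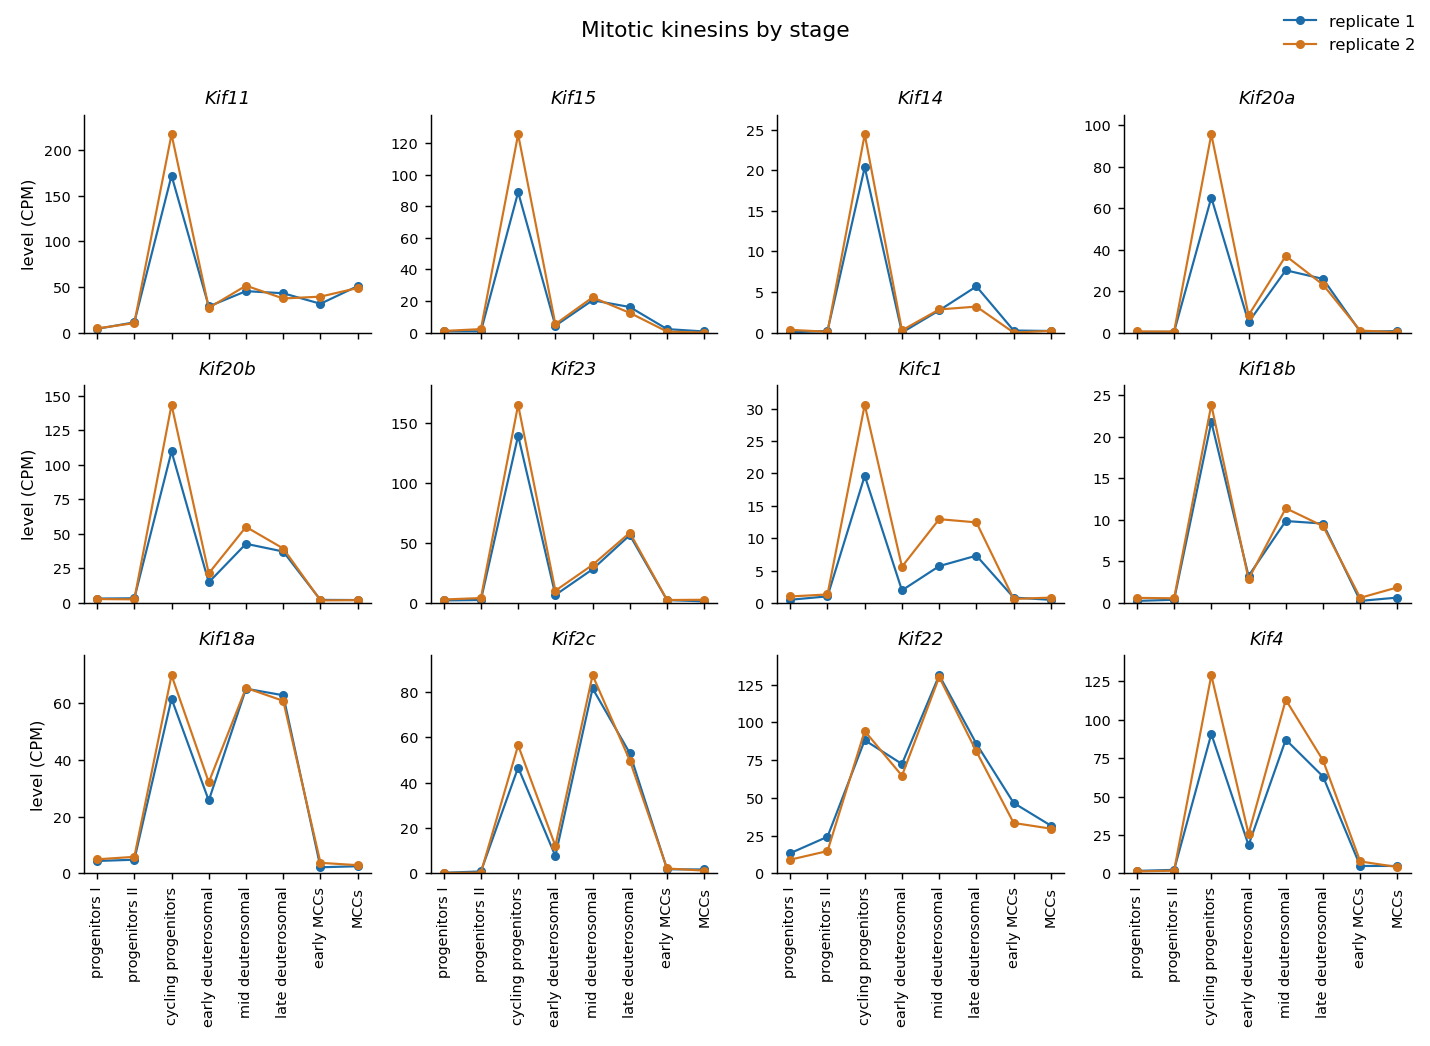
Levels of 12 mitotic kinesins (y axis, CPM of summed UMIs, each panel with its own scale from 0) in 8 populations in the order of the lineage (x axis), with 1 line for each library. Levels in mid deuterosomal cells pass those in cycling progenitors in both libraries for Kif2c and Kif22, and Kif11 stays at 50.9 and 48.8 CPM in MCCs.

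Kif2c, Kif22, Kif18a and Kif4 came back to the level of dividing cells or close to it. Kif2c, the kinetochore depolymeriser MCAK, had 81.5 and 87.3 CPM in mid deuterosomal cells, against 46.7 and 56.5 CPM in cycling progenitors and 0.32 and 0.22 CPM in progenitors I. Its mid deuterosomal level was 1.75 and 1.55 times the cycling level in replicates 1 and 2. Kif22, which pushes chromosome arms away from the poles, had 131 and 129.9 CPM in mid deuterosomal cells, against 88.2 and 94.2 CPM in cycling progenitors. Kif18a, which damps chromosome movements at the metaphase plate, had 65.1 and 65.3 CPM in mid deuterosomal cells and 62.8 and 60.8 CPM in late ones, against 61.5 and 69.8 CPM in cycling progenitors. Kif4, a chromokinesin that also works with Prc1 at the midzone, had 87.1 and 113 CPM in mid deuterosomal cells, against 90.7 and 129 CPM in cycling progenitors.

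The other mitotic motors came back to a fraction of their cycling level, between 11.7% and 47.8% in mid deuterosomal cells. Kif18b, a kinesin-8 motor, had 45.3% and 47.8% of it, Kifc5b 46.5% and 44.5%, and Kifc1 29.0% and 42.3%. Kif11 had 45.4 and 51.4 CPM in mid deuterosomal cells, 26.4% and 23.7% of its cycling level. Kif15, which shares the work of Kif11 on spindle fibres, had 20.4 and 22.3 CPM, against 88.8 and 125 CPM in cycling progenitors. Kif14, a midbody motor, had 2.73 and 2.85 CPM, against 20.4 and 24.4 CPM. Kif23, the motor subunit of the centralspindlin complex that organises the midbody, had 28.2 and 31.8 CPM in mid deuterosomal cells, against 139.8 and 165 CPM in cycling progenitors. Late deuterosomal cells had more of it, at 56.7 and 58.7 CPM; Kif14, at 5.69 and 3.20 CPM in late cells, was also above its mid level in both libraries, a step that did not pass (0.76 ± 0.40).

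Set directly against cycling progenitors, late deuterosomal cells had 12 genes higher and 16 lower, where 28.1% and 25.0% of all genes passed. Of the 13 mitotic motors 10 were lower and 3 did not pass, with a median of −1.33 beside 0.01 over all genes. Kif15 was the lowest at −2.69 ± 0.31 (adjusted p = 3.96e-06), and Kif11 followed at −2.17 ± 0.23 (adjusted p = 4.45e-07). The 3 that did not pass were Kif22 (−0.10, 95% interval −0.47 to 0.27), Kif18a (−0.03, −0.31 to 0.25) and Kif2c (0.07, −0.32 to 0.46). Kif4 was lower by −0.62 ± 0.15 (adjusted p = 0.00169), a call lost with DESeq2's Wald test (adjusted p = 0.103) and with thinned cells (adjusted p = 0.278). The call for Kifc1, a motor that gathers spindle poles (−1.32 ± 0.25), was lost with thinned cells (adjusted p = 0.0692).

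Cycling progenitors include cells of every class, while most mid and late deuterosomal cells are of class S/G2. Comparing within class S/G2 matches the cells by class name only. As given below, Kif11, Kif23 and Kif2c were low in cycling progenitors of class G2/M, so class names may not follow phases. Whether class S/G2 holds the same phases in both populations was not tested. Within class S/G2, mid deuterosomal cells (693 and 292 cells) were compared with cycling progenitors (206 and 97 cells), and 40 of the genes were tested. Of these 12 were higher and 20 lower, against 31.7% and 34.2% of the 13634 genes tested. Of the 13 mitotic motors 11 were lower, with a median of −1.98 beside −0.05 over all genes. Kif14 (−3.63 ± 0.33), Kif23 (−3.02 ± 0.12), Kif15 (−2.85 ± 0.20) and Kif11 (−2.69 ± 0.13) were the lowest, with adjusted p values of 9.69e-13, 1.22e-31, 9.66e-12 and 8.29e-21. Kif2c did not pass at −0.13 (95% interval −0.37 to 0.10), and neither did Kif22 at −0.26 (−0.54 to 0.03). Kif18a and Kif4 were each lower by −0.72.

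Late deuterosomal cells of class S/G2 (335 and 92 cells), a comparison chosen after seeing the data because only 17 and 8 cycling progenitors were of class G2/M, had all 13 mitotic motors lower. There 12 genes were higher and 20 lower, against 27.6% and 29.3% of all genes. The range ran between −3.22 ± 0.24 for Kif15 and −0.61 ± 0.12 for Kif18a (adjusted p = 2.72e-05, and 0.0773 with thinned cells). Kif2c was lower by −0.75 ± 0.13 (adjusted p = 1.45e-06) and Kif22 by −0.89 ± 0.15 (adjusted p = 1.23e-05). The listed partners moved alike in both class S/G2 comparisons, with all 10 lower, among them Aurkb (−2.73 ± 0.12 in mid and −2.71 ± 0.13 in late cells), the kinase of the passenger complex that Kif20a carries.

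**Figure D2:**
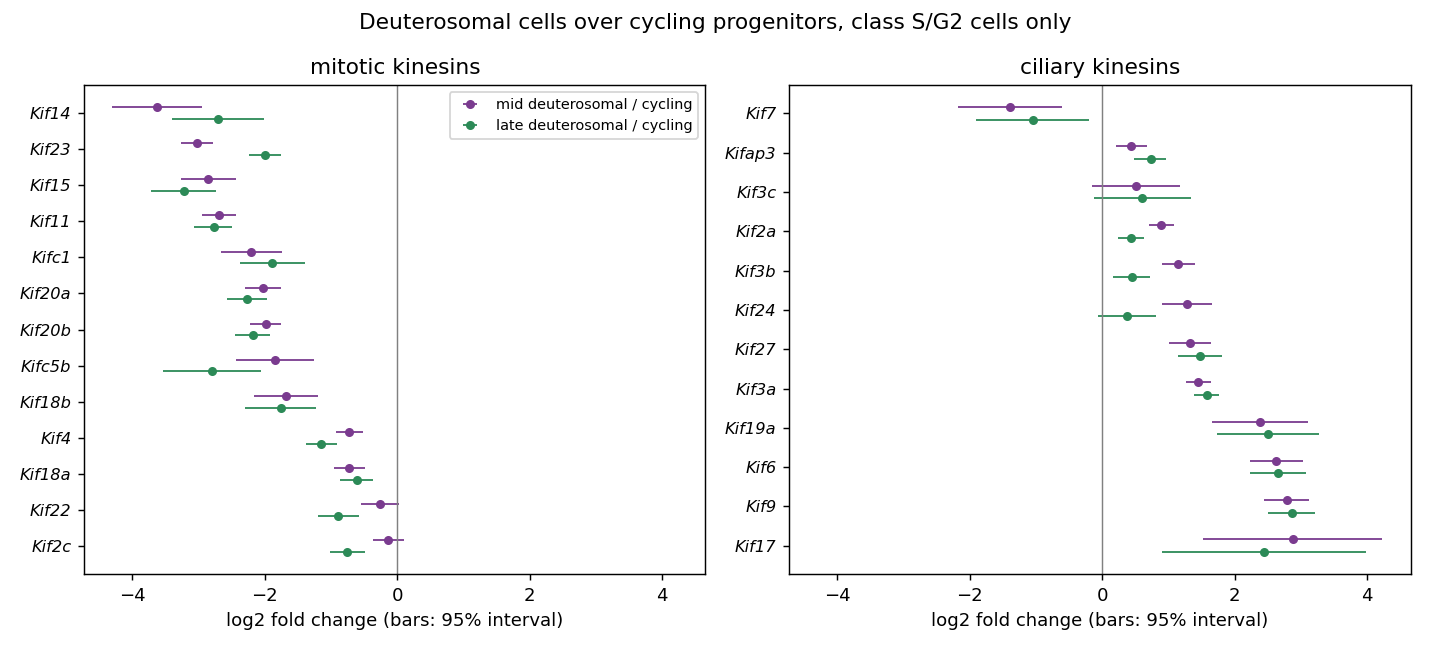
Log2 fold changes (x axis) of mid and of late deuterosomal cells over cycling progenitors, all of class S/G2, for 13 mitotic kinesins (left) and 12 ciliary kinesins (right); points are edgeR estimates and bars 95% intervals. Mitotic kinesins spread between −3.63 and −0.13 in mid deuterosomal cells, with Kif2c and Kif22 nearest to 0, and all ciliary kinesins but Kif7 lie right of 0.

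The motors were also counted cell by cell. After each cell was thinned to 5000 UMIs, 5 or more different mitotic motors were seen in 27.4% and 34.3% of cycling progenitors in replicates 1 and 2. In mid deuterosomal cells the shares were 6.97% and 8.09%, in late ones 5.95% and 5.26%, and in MCCs 0% and 0%. No mitotic motor was seen in 11.2% and 9.54% of mid deuterosomal cells, against 23.9% and 23.6% of cycling progenitors. The median number of different motors was 2 and 2 in mid deuterosomal cells and 2 and 3 in cycling progenitors. The most seen in a cell was 8 and 8 in mid deuterosomal cells, against 12 and 11 in cycling progenitors. Most cells of both populations thus showed some mitotic motor, and cycling progenitors spread more widely.

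Within cycling progenitors the detected mitotic motors climbed over the deposited classes up to S/G2 in both libraries, except Kifc5b, which in replicate 2 had 5.23 CPM in G1 and 3.70 CPM in S. Kif11 had 8.38 and 9.71 CPM in class G0, 47.0 and 49.2 CPM in G1, 133 and 174 CPM in S, and 298 and 372 CPM in S/G2. Kif23 had 5.24 and 5.83, 27.5 and 28.3, 104 and 89.7, and 249 and 309 CPM over the same classes. Class G2/M then stood apart. In the 17 and 8 cycling progenitors of that class Kif11 had 7.96 and 8.20 CPM (2 and 1 UMIs), Kif23 15.9 and 0 CPM (4 and 0 UMIs) and Kif2c 3.98 and 8.20 CPM (1 UMI each), against 96.7 and 112 CPM for Kif2c in class S/G2.

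Late deuterosomal cells of class G2/M (52 and 21 cells) were low as well, with Kif11 at 17.6 and 18.6 CPM, against 50.6 and 44.2 CPM in late cells of class S/G2. Kif2c had 11.7 and 15.5 CPM in class G2/M, against 63.2 and 60.2 CPM in S/G2, and Kif23 18.5 and 15.5 CPM, against 67.7 and 69.7 CPM. Kif22 did not share this, with 70.3 and 92.9 CPM in class G2/M, against 90.6 and 78.8 CPM in S/G2, and the order turned between the libraries, as it did for Kifc5b on few UMIs. In both populations Kif11, Kif23 and Kif2c were thus lower in class G2/M than in class S/G2, which goes against the name of the class. The classes presumably rest on transcripts, and these levels are a description with no test.

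**Figure D3:**
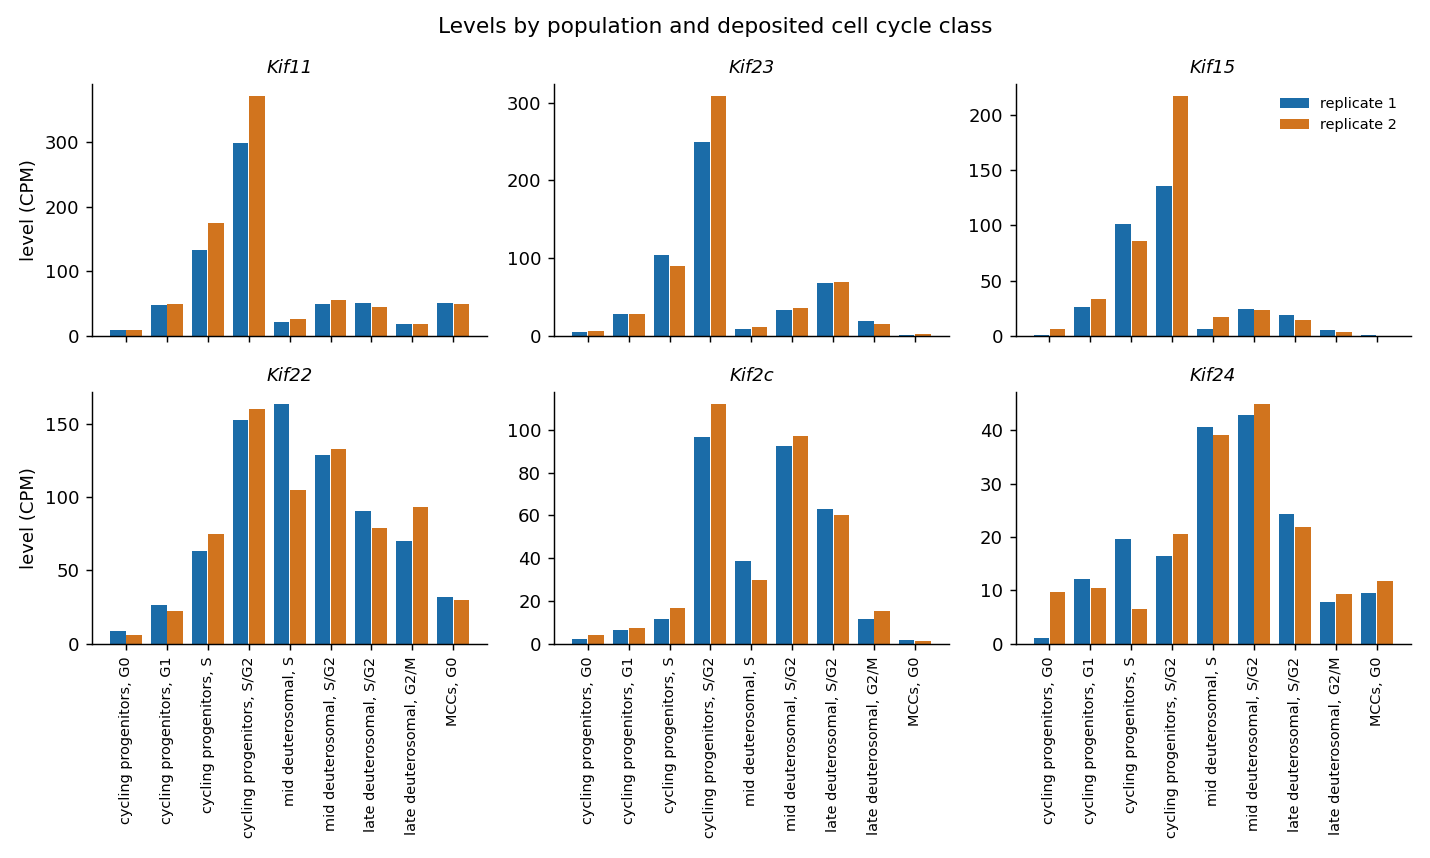
Levels (y axis, CPM, bars from 0) of 6 kinesins in 9 combinations of population and deposited cell cycle class (x axis), with 1 bar for each library. Kif11, Kif23 and Kif15 tower in class S/G2 cycling progenitors, Kif2c has 92.5 and 97.4 CPM in class S/G2 mid deuterosomal cells, against 96.7 and 112 CPM in class S/G2 cycling progenitors, and Kif24 is highest in mid deuterosomal cells among the combinations drawn; early deuterosomal cells of class S/G2, not drawn, had 55.6 and 47.2 CPM.

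Upstream bases are shown for 5 genes of these groups, to set motors whose level over all late deuterosomal cells was not distinguished from cycling progenitors (Kif22, Kif18a) beside ones that were lower there (Kif11, Kif23) and a motor of the finished cilium (Kif9). Each line is the 100 bases before the annotated start in RefSeq on GRCm38.p6, read 5′ to 3′ on the gene's strand, and for Kif9 before the second of its annotated starts; the window before its first start, chr9:110476858-110476957, holds none of the motifs. Capitals mark matches on either strand to the CCAAT box (CCAAT), the cell cycle genes homology region CHR (TTTGAA), the E2F site (TTTGGCGC) and the X-box of RFX factors (GTNNCC, any 3 bases, then GNAAC); the 4 motifs do not overlap in these lines. The windows are chr19:37376282-37376381 (plus strand) for Kif11, chr9:61946800-61946899 (minus) for Kif23, chr7:127042421-127042520 (minus) for Kif22, chr2:109280638-109280737 (plus) for Kif18a and chr9:110476894-110476993 (plus) for Kif9.
Kif11: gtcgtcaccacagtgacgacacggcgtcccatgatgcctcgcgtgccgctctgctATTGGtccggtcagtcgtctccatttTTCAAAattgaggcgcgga
Kif23: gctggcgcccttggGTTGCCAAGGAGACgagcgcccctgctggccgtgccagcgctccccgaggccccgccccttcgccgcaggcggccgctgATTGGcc
Kif22: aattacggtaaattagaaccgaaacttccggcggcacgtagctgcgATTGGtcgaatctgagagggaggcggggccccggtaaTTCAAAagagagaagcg
Kif18a: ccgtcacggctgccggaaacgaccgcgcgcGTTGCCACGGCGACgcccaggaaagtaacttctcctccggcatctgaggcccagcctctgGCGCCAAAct
Kif9: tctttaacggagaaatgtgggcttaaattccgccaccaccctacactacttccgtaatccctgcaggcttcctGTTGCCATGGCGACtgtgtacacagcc

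Kif11 and Kif22 carry the same pair, an inverted CCAAT box followed by an inverted CHR. Kif23 and Kif18a carry an X-box as Kif9 does. Over the 250 bases before the start, the CCAAT box was found in 9 of the 13 mitotic motors with an entry, 6 of 11 ciliary and 2 of 10 transport motors, and in 37.5% of all genes in the table. The CHR was found in 5, 1 and 2 of them (18.3% of all genes), the X-box in 3, 1 and 0 (2.07%) and the E2F site in 2, 0 and 0 (0.485%). The third mitotic motor with an X-box is Kif18b. Of the 45 genes 35 had an entry. These matches describe letters only, and nothing about binding was measured.

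Ciliary motors were mostly higher in deuterosomal cells than in dividing ones. Late deuterosomal cells had 10 of the 12 ciliary motors higher than cycling progenitors, 1 lower (Kif7, −0.90 ± 0.31) and 1 that did not pass (Kif3c, 0.18 ± 0.27), with a median of 1.26. The Kif7 call turned round with thinned cells (0.06, adjusted p = 0.968), and those for Kif24 (0.60 ± 0.19, adjusted p = 0.0816 with thinned cells) and Kif2a (0.31 ± 0.12, adjusted p = 0.151 without unannotated cells) were lost. Kif19a, which trims cilia at their tips, had 16.8 and 22.8 CPM in late deuterosomal cells, against 2.44 and 2.46 CPM in cycling progenitors (2.94 ± 0.32, adjusted p = 3.52e-08). Kif9 had 79.6 and 128 CPM, against 14.5 and 14.2 CPM (2.78 ± 0.29, adjusted p = 1.4e-06), and Kif6, needed for ependymal cilia in mice, 41.9 and 60.1 CPM, against 9.44 and 7.80 CPM (2.47 ± 0.22, adjusted p = 2.77e-09). Within class S/G2 the ciliary median was 1.31 in mid and 1.1 in late deuterosomal cells over cycling progenitors.

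Against progenitors I and II, the MCC stages had 15 of 41 genes higher and 10 lower, where 31.5% and 32.3% of all genes passed. Of the 12 ciliary motors 10 were higher and Kif7 was lower, with a median of 1.08 beside −0.04 over all genes. The Kif7 call was lost with DESeq2's Wald test (adjusted p = 0.0568) and with thinned cells (0.113). Kif19a had 28.0 and 23.2 CPM in MCCs, against 1.93 and 1.06 CPM in progenitors I, and its change over the MCC stages was 3.26 ± 0.16 (adjusted p = 1.92e-14). Kif6 (2.22 ± 0.12) and Kif9 (1.96 ± 0.16) followed. Kif27, a relative of Kif7 that binds Stk36 and serves the central pair of motile cilia, had 57.8 and 63.9 CPM in MCCs, against 17.0 and 18.9 CPM in progenitors I (1.28 ± 0.10, adjusted p = 5.08e-11). Progenitors II already sat above progenitors I for Kif9, Kif6 and Kif27, at 39.9 and 52.2, 21.1 and 23.2, and 33.7 and 36.6 CPM.

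**Figure D4:**
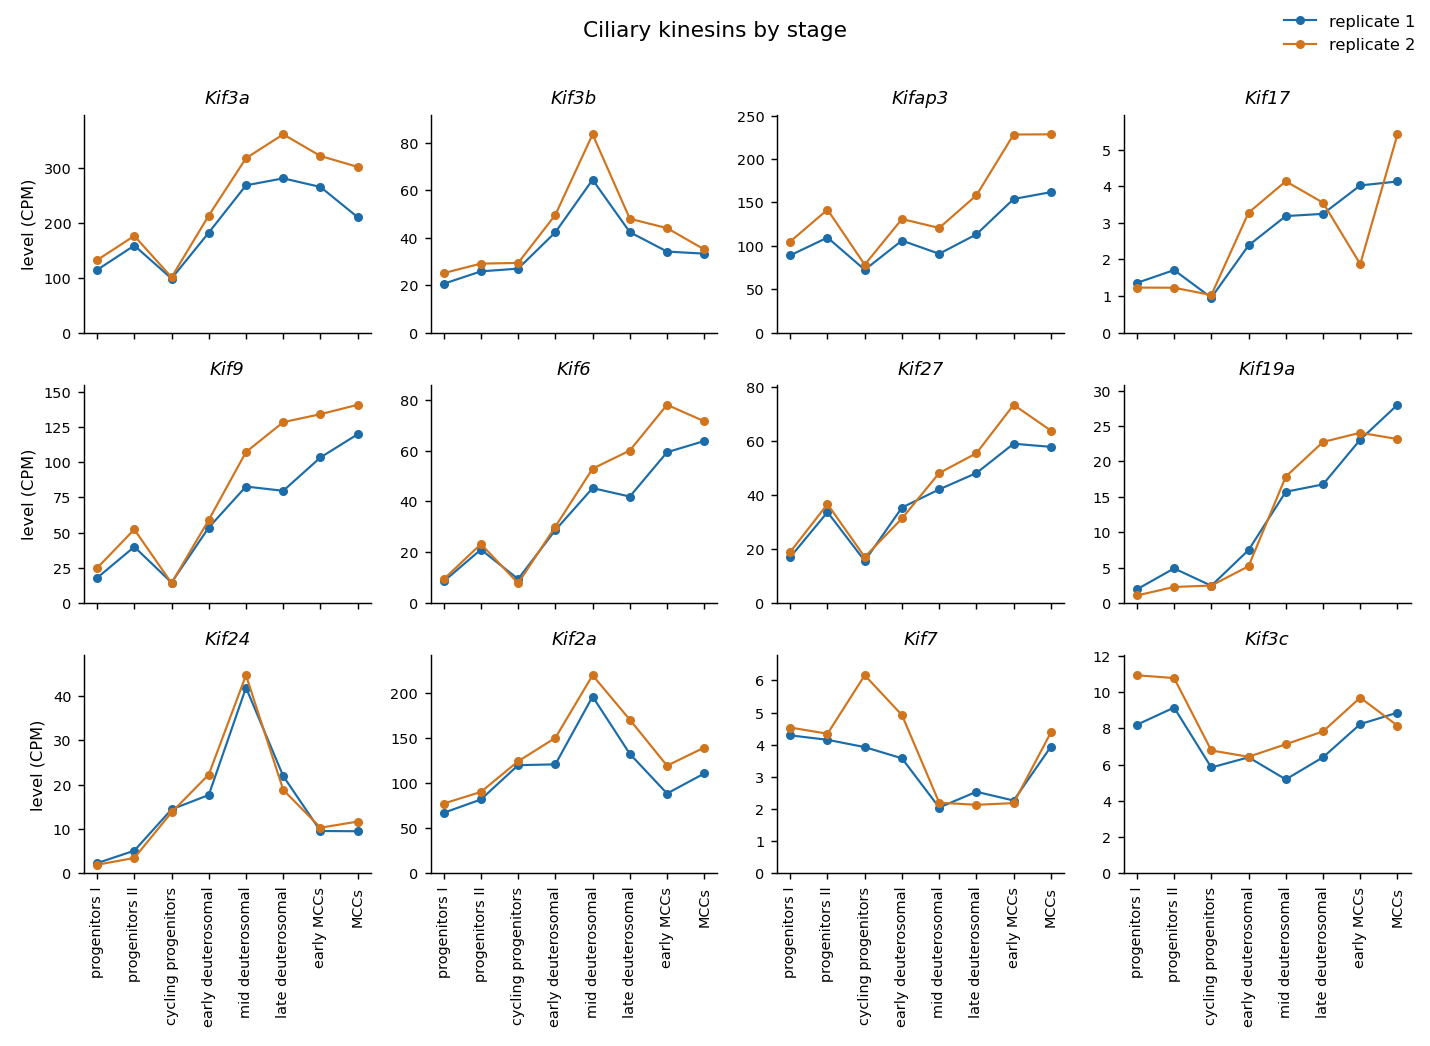
Levels of 12 ciliary kinesins (y axis, CPM of summed UMIs, each panel with its own scale from 0) in 8 populations in lineage order (x axis), with 1 line for each library. Kif9, Kif6, Kif27 and Kif19a climb to an MCC stage, Kif3b, Kif24 and Kif2a peak in mid deuterosomal cells, Kif3a peaks in late ones, and Kif7 is lowest between mid deuterosomal cells and early MCCs.

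The subunits of the kinesin-2 transport motor did not share a peak. Kif3b, 1 of its 2 motor chains, was highest in mid deuterosomal cells at 64.5 and 83.6 CPM, and had 42.3 and 48.0 CPM in late ones and 33.3 and 35.1 CPM in MCCs. It was lower in late than in mid deuterosomal cells by −0.77 ± 0.12 (adjusted p = 2.57e-05). Kif3a, the other chain, was highest in late cells at 281 and 362 CPM, against 269 and 318 CPM in mid ones, a step that did not pass (0.04 ± 0.22). Kifap3, the cargo adaptor, had 162 and 229 CPM in MCCs, against 113 and 158 CPM in late deuterosomal cells (0.51 ± 0.14, adjusted p = 0.00632). That call was lost with no library term (0.52, adjusted p = 0.206), and early MCCs were close to MCCs for Kifap3 at 154 and 228 CPM. Kif17, a kinesin-2 motor that works alone, was rare, at 4.14 and 5.43 CPM in MCCs, against 1.36 and 1.23 CPM in progenitors I; over the MCC stages it was higher by 1.42 ± 0.23 (adjusted p = 6.67e-06), although early MCCs of replicate 2 had 1.87 CPM.

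Depolymerising kinesins of the kinesin-13 family, Kif24, Kif2a and Kif2c, peaked together in mid deuterosomal cells, a grouping noticed after their values were seen. Kif24, which with Ccp110 caps the mother centriole and keeps it from growing a cilium, had 41.8 and 44.6 CPM in mid deuterosomal cells, 2.90 and 3.25 times the 14.4 and 13.8 CPM of cycling progenitors. It was lower in late than in mid cells by −1.11 ± 0.16 (adjusted p = 1.56e-05), at 21.9 and 18.8 CPM. Its partner Ccp110 was lower by −1.0 ± 0.12 and Ccp110's own partner Cep97 by −0.83 ± 0.14 in the same step. Kif2a, a depolymeriser of spindle poles and primary cilia, had 196 and 219 CPM in mid deuterosomal cells, against 120 and 124 CPM in cycling progenitors. The remaining relative, Kif2b, had no UMI. Kif24's excess over cycling progenitors held within class S/G2 for mid cells (1.28 ± 0.19, adjusted p = 2.51e-08) and did not pass for late cells (0.38, 95% interval −0.06 to 0.82). Kif2a was higher within class S/G2 as well (0.89 ± 0.09 in mid cells), whereas Kif2c was not, as given above (−0.13 in mid cells), so its peak was seen over whole populations only.

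Late against mid deuterosomal cells moved 9 of the 41 genes, 2 higher and 7 lower, where 8.61% of all genes were higher and 13.2% lower. Those lower were Kifc5b, Kif24, Kif3b, Kif2c, Kif22, Kif4 and Kif2a, between −1.13 and −0.56. Those higher were Kif23 (0.89 ± 0.15, adjusted p = 7.94e-05) and the vesicle motor Kif1a (0.63 ± 0.15, adjusted p = 0.00323). With DESeq2's Wald test Kif2c (adjusted p = 0.321), Kif22 (0.103), Kif4 (0.274) and Kifc5b (0.0502) were no longer called, and with thinned cells Kifc5b (0.944) and Kif4 (0.0958) were not. With no library term both higher calls were lost, Kif23 (adjusted p = 0.0745) and Kif1a (0.196). The lower calls for Kif2c (0.104), Kif22 (0.0991), Kif2a (0.121), Kifc5b (0.0833) and Kif4 (0.214) were lost as well, which left Kif24 and Kif3b. Kifc1 and Kifc5b are near-identical copies whose reads could be split between them.

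MCCs then lost nearly all mitotic motors. Against late deuterosomal cells, MCCs had 8 genes higher and 15 lower, where 18.8% and 19.9% of all genes passed, and 12 of 13 mitotic motors were lower with a median of −4.12 beside 0.03 over all genes. Kif20a had 0.72 and 0.21 CPM in MCCs, against 25.9 and 23.1 CPM in late deuterosomal cells (−5.22 ± 0.29, adjusted p = 8.21e-13), and Kif23 1.37 and 2.71 CPM, against 56.7 and 58.7 CPM (−5.13 ± 0.22, adjusted p = 1.74e-15). The proliferation markers summed to 11.2 and 12.9 CPM in MCCs. Of the 10 listed partners 9 were lower and Numa1, a spindle pole protein also found in interphase nuclei, was higher (0.39 ± 0.12). Of the ciliary motors 3 were higher (Kif6, Kif19a and Kifap3) and 2 lower (Kif24 and Kif3b). The calls for Kif6 and Kif19a were lost with DESeq2's Wald test (adjusted p = 0.394 and 0.253), as was that for Kif3b with thinned cells (0.247). With no library term Kif6, Kif19a, Kifap3 and Kif3b were all no longer called (adjusted p = 0.342, 0.395, 0.206 and 0.148). Kif9 did not pass (0.37 ± 0.22) and was higher with thinned cells (0.51, adjusted p = 0.00267) and with these populations alone in the fit (0.36, adjusted p = 0.000908).

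Kif11 was the mitotic motor that stayed. It had 50.9 and 48.8 CPM in MCCs, against 43.1 and 37.3 CPM in late deuterosomal cells, a difference that did not pass (0.26, 95% interval −0.24 to 0.76) and that passed when cells were thinned to 5000 UMIs (0.63, adjusted p = 0.01) or when these populations alone were fitted (0.25, adjusted p = 0.0428). The MCC level was 12.6 and 10.9 times that of progenitors I, and over the MCC stages Kif11 was higher than in progenitors I and II by 2.58 ± 0.19 (adjusted p = 3.28e-09). In thinned cells a Kif11 UMI was seen in 438 of 2013 MCCs of replicate 1 (21.8%, 95% Clopper-Pearson interval 19.97 to 23.6) and 54 of 261 of replicate 2 (20.7%, 15.9 to 26.1). The same share was 2.12% and 2.56% in progenitors I and 6.35% and 0% in oligodendrocytes, of which only 63 and 35 cells were thinned. Mki67 and Top2a summed to 84.9 and 38.5 CPM in oligodendrocytes and 11.2 and 12.9 CPM in MCCs. Their part in the Kif11 shares was not tested. Without thinning the share of cells with a Kif11 UMI was 46.8% and 53.4% in MCCs, whose median depths were 13053 and 16747 UMIs.

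The partners of Kif11 did not stay with it. Kif15 had 0.68 and 0 CPM in MCCs, and Tpx2 was lower in MCCs than in late deuterosomal cells by −6.19 ± 0.38 (adjusted p = 2.37e-08). Kif22 also remained in part, at 31.7 and 29.6 CPM in MCCs, against 13.4 and 9.12 CPM in progenitors I (1.19 ± 0.14 over the MCC stages against progenitors I and II, adjusted p = 2.38e-07). Kif4 and Kif2c were higher than in progenitors as well, at 4.88 and 4.17 CPM and 1.76 and 1.252 CPM in MCCs, and 8 mitotic motors did not pass in that comparison. Kif18a was lower, at 2.54 and 2.92 CPM in MCCs, against 4.40 and 4.98 CPM in progenitors I (−0.95 ± 0.19, adjusted p = 0.000113). The Kif11 locus (chr19:37376403-37421859 in GENCODE M21, mm10) contains a processed pseudogene on each strand, and the part of their reads in the counts was not tested.

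Motors of vesicle and organelle transport were mostly lower in the deuterosomal stages, and some were higher in MCCs than in late deuterosomal cells. Of the 15 tested, 11 were lower in the deuterosomal stages than in progenitors I and II and 4 did not pass. Over all genes 34.3% were lower there, and the median was −0.48 for these motors beside 0.01. Many stayed lower later: against progenitors I and II, the MCC stages had 8 lower, 1 higher and 6 that did not pass. Over all genes 32.3% were lower and 31.5% higher there, and the median of these motors was −0.23. Late against mid deuterosomal cells had 1 transport motor higher (Kif1a, not called with no library term), where 8.61% of all genes were higher. MCCs against late deuterosomal cells had 5 higher and 1 lower, where 18.8% and 19.9% of all genes passed. The median over transport motors was 0.23. With no library term Kif26b, Kif16b, Kifc3, Kifc2 and the lower Kif26a were not called (adjusted p = 0.0509, 0.229, 0.074, 0.138 and 0.0775). With thinned cells Kif16b (0.483) and Kifc3 (0.0981) were not. Kif5b, the widely used heavy chain of conventional kinesin, had 225 and 269.7 CPM in mid deuterosomal cells, against 374 and 423 CPM in progenitors I, and the change over the deuterosomal stages was −0.48 ± 0.07 (adjusted p = 2.28e-06). Kif1a had 26.7 and 35.6 CPM in mid deuterosomal cells, against 78.6 and 107 CPM in progenitors I (−1.06 ± 0.08, adjusted p = 1.95e-11). Kif5a, a heavy chain best known from neurons, had 0.63 and 0.65 CPM, against 3.29 and 3.36 CPM (−1.89 ± 0.24, adjusted p = 9.5e-08).

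**Figure D5:**
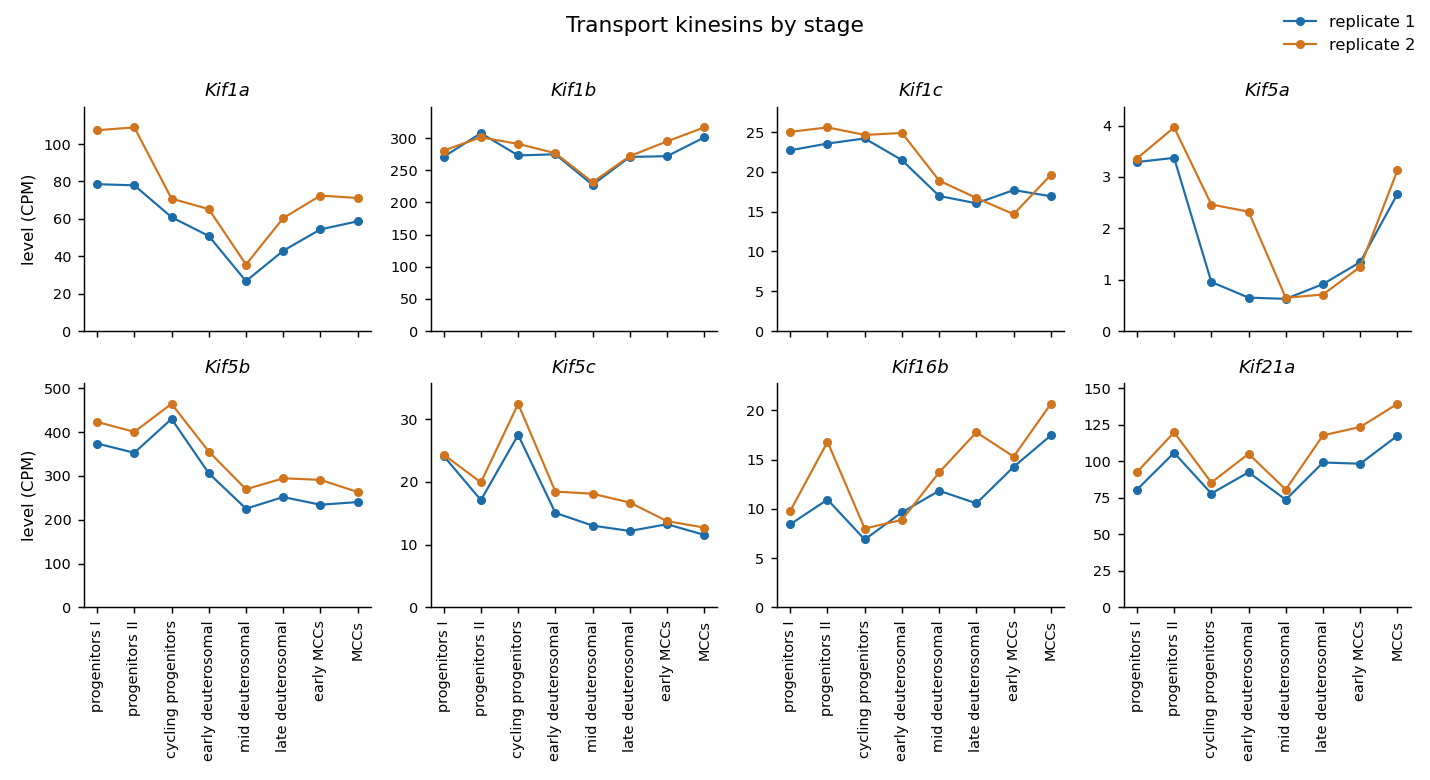
Levels of 8 transport kinesins (y axis, CPM of summed UMIs, each panel with its own scale from 0) in 8 populations in lineage order (x axis), with 1 line for each library. Kif1a, Kif1b and Kif5a dip in mid deuterosomal cells, Kif5b and Kif5c are highest in cycling progenitors, and Kif16b and Kif21a are highest in MCCs.

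Kif1b, which carries mitochondria and synaptic vesicle precursors, stood at 227 and 231 CPM in mid deuterosomal cells, against 271 and 281 CPM in progenitors I; over the deuterosomal stages it did not pass (−0.18 ± 0.12) and passed when cells were thinned (−0.21, adjusted p = 0.00499). Kif16b, an endosome motor, was the transport motor higher in the MCC stages, at 17.5 and 20.7 CPM in MCCs, against 8.44 and 9.80 CPM in progenitors I (0.58 ± 0.11, adjusted p = 6.48e-05). Outside the lineage, Kif5c was highest in neuroblasts at 96.6 and 159.7 CPM, and Kif21b, a neuronal and immune cell motor, had 53.4 and 86.1 CPM in oligodendrocytes, against 1.00 and 1.46 CPM in progenitors I. Dividing cells of other types held mitotic motors too, with Kif11 at 177 and 330 CPM in oligodendrocyte precursors, where Mki67 and Top2a summed to 1127 and 2709 CPM. Neuroblast markers in progenitors I summed to 57.7 and 163.8 CPM in the 2 libraries, of which Stmn2 alone gave 47.8 and 152.8 CPM; Dcx had 0.75 and 1.51 CPM there, against 377 and 489.8 CPM in neuroblasts. Their part in the levels of Kif5a and Kif21b in progenitors I was not tested.

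Some genes share their locus with another. In GENCODE M21 Kif18a overlaps Mettl15, Kif20a overlaps Cdc23, Kif4 overlaps Pdzd11, Kif2a overlaps Dimt1, Kif7 overlaps Ticrr and Kif17 overlaps Sh2d5. No source used here states whether counting used strand, so reads of such pairs may have been counted to either gene.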

How the data were processed

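Single-cell RNA was measured in 2 primary cultures, 1 library each. The authors' deposited counts are whole UMI counts per gene and cell from 10x Genomics 3′ v3 libraries, for which the submitters' processing notes name Cell Ranger 3, Cell Ranger 5.0.1 and mm10; the deposited metadata names the population and cell cycle class. The lowest cell had 2502 UMIs, so cells had been filtered before deposit, and no further cell was removed. No source used here states how doublets were handled.

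Counts were summed per library and population (26 sums over 13 populations; fibroblasts had 18 cells in replicate 1 and did not enter) or per library, population and class with at least 20 cells in each library (38 sums over 19 units). edgeR 4.0.16 (R 4.3.3) was run with filterByExpr, TMM factors between 0.739 and 1.20, and robust quasi-likelihood tests, two-sided, with 12 and 18 residual degrees of freedom and all genes adjusted together. The model held population and library, since populations of 1 library share a culture and a run; as a check, deviations from population means had a median correlation of 0.184 inside a library (lowest −0.00168). Progenitors I and II make up the non-cycling progenitors, the deuterosomal stages are early, mid and late cells, and the MCC stages are early MCCs and MCCs, each averaged equally. The planned comparison within class G2/M could not be run because cycling progenitors had too few such cells.

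For shares of cells, each cell was thinned to 5000 UMIs, which left out 607 cells of 16401, and intervals are exact 95% Clopper-Pearson. Intervals and floors (3 counts) cover counting error only. A stage pattern needed 20 UMIs in each library. Alternatives were DESeq2 1.42.0 size factors and Wald test, no filter, no library term, only the compared populations, thinned cells and single libraries. The genes, their role lists and the lists of partners were chosen with earlier results of these data known. Any of the genes may be named; by rule, up to 6 of the highest and 6 of the lowest changes past the test are described in each comparison, and genes that missed the test were named after their values were seen.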

Additional observations from a re-analysis of the deposited data

Results flagged for a closer look

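Mitotic motors were also present in fibroblasts, a population that entered no comparison because replicate 1 held only 18 such cells. Their summed level was 708.6 CPM in replicate 1 (186 UMIs, 13 motors with a UMI) and 41.63 CPM in replicate 2 (14 UMIs in 22 cells, 8 motors with a UMI), above the 11.4 and 8.92 CPM that a count of 0 allows. Mki67 and Top2a summed to 769.5 CPM in replicate 1 and 56.5 CPM in replicate 2, and their part in the difference between the libraries was not tested.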

How the results depend on the processing

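Of 225 pairs of a gene and a comparison that were followed, 212 of them past the test, calls were lost by 13 pairs with DESeq2's Wald test, 3 with DESeq2 size factors, 4 without the filter, 4 with only the compared populations in the fit, 4 without unannotated cells and 32 with thinned cells, where Kif7 in late deuterosomal against cycling progenitors turned to 0.06 (adjusted p = 0.968). Thinned cells gave fewer tested genes, with 3394 lower in the MCC stages against non-cycling progenitors, 2574 lower in late deuterosomal against cycling progenitors, 818 higher and 994 lower in late against mid deuterosomal cells (4 kinesin genes higher) and 1821 lower in MCCs against late deuterosomal cells. Within class S/G2 they gave 2708 higher and 3017 lower for mid cells, and 2150 higher and 2404 lower for late cells (7 kinesin genes higher). With only the compared populations in the fit, late against mid deuterosomal cells had 2284 genes higher (5 kinesin genes), and DESeq2's Wald test called 3 kinesin genes lower there; the cause was not tested.

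Without the replicate block, 42 of the pairs lost their call. Cycling against non-cycling progenitors then had 1662 genes higher and 1160 lower (3 kinesin genes lower), late against mid deuterosomal cells 332 higher and 664 lower (0 and 2 kinesin genes), and MCCs against late deuterosomal cells 1270 higher and 1707 lower (1 kinesin gene higher). Among the calls lost were Kif23 in late against mid cells (adjusted p = 0.0745), Kif4 and Kif24 in late deuterosomal against cycling progenitors (0.0753 and 0.0836) and Kif3a in cycling progenitors (0.172). Single libraries leave no residual degrees of freedom and gave values with no test. Each log2 value was set against the main one, with the standard deviation of the 2 single-library values as the margin. It moved beyond that margin in 93 of the 225 pairs without replicate 1 and in 68 without replicate 2. The margin comes from the same values that it judges, so these counts do not measure how well the cultures agree. Stage patterns on TMM-scaled levels put 11 genes in cycling progenitors, 8 in a deuterosomal stage and 9 in an MCC stage. Depth limits the rare motors: Kif14, Kif17 and Kifc5b rest on few UMIs in most stages.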
